A study of Homo sapiens with 6 samples.

Results

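Degradation of the AKT kinases was set against inhibition of their catalytic activity. The comparison rests on 4 of the series' 6 libraries, taken by their treatment labels: 2 from cells given the AKT degrader INY-05-040, called Degrader here, and 2 from cells given GDC0068, which blocks the catalytic activity of AKT. Every gene interval of the deposited count table was considered, which gave 20333 intervals, and 19902 of them passed a filter on low counts and were tested. The cells were T47D, an established breast cancer line of luminal type that carries the estrogen receptor and is classed as HER2-negative. Cells grew in complete medium with growth factors, and treatment lasted 5 h, with 100 nM Degrader, 500 nM GDC0068 or the solvent DMSO. The 2 DMSO libraries give the untreated background and enter the fit. Each arm had 1 library from each of 2 independent experiments, so the Degrader and GDC0068 libraries of one replicate number form a pair. The submitters set the drug concentrations so that signalling below AKT was suppressed to a similar degree, and the concentrations therefore differ. The identity of the compound, its concentration and its mode of action cannot be told apart in this design, and the amount of AKT protein was not analysed here.

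AKT acts below PI3K and growth factor receptors. It phosphorylates FOXO transcription factors, which keeps them out of the nucleus, and it feeds the mTORC1 kinase, which promotes ribosome production and the processing of the SREBP factors that drive sterol and fatty acid genes. A catalytic inhibitor leaves the kinase protein in place, whereas a degrader removes it. Transcription was read by PRO-seq, in which RNA polymerases already engaged on genes run on for a short stretch with labelled nucleotides, and the labelled nascent RNA is sequenced. Counts in a gene interval thus report engaged polymerase and not the store of mature RNA.

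Library totals lay between 25371819 and 32192576 counts. The median count per gene was 616 to 761, at which counting error alone is 3.63% to 4.03%, and errors given from counting cover counting only. Values are given as library-scaled counts (CPM, counts per 1000000 of the scaled library total) for replicate 1 and then replicate 2, and a difference is log2 of Degrader over GDC0068, so that a positive value means more engaged polymerase under Degrader. A gene was called where the edgeR quasi-likelihood test, with the replicate number as a block, gave an adjusted p under 0.05 over all 19902 genes. With 2 libraries an arm, no rank or permutation test can pass 0.05, and the test rests on the spread shared across genes. No spike-in entered the scaling, so each difference is relative to the bulk of genes. The luminal markers of the line's label were present: per kilobase of interval, KRT19 had 173 to 198 CPM, GATA3 63.5 to 70.2 CPM, FOXA1 46.5 to 53.3 CPM and ESR1 3.43 to 4.09 CPM across the 6 libraries. Of the 9 luminal markers, KRT8 (-0.17, edgeR adjusted p = 0.00451) and KRT18 (-0.14, edgeR adjusted p = 0.0374) were lower under Degrader. Markers of basal (KRT5, KRT14, TP63), fibroblast, immune and endothelial cells were looked for. They had no interval in the deposited count table, so no level can be given for them.

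Degrader and GDC0068 differed at 2065 genes, which is 10.4% of those tested. Of these, 1001 (5.03% of the genes tested) were higher under Degrader, with a median difference of 0.18, and 1064 (5.35%) were lower, with a median of -0.28. The differences were small: 80 of the called genes reached 1.5-fold and 17 reached 2-fold. An unadjusted p under 0.05 was found at 4967 genes, where 995 would fall under it by chance. All 2065 differed in the same direction in both pairs, and at 1896 of them both libraries of one drug lay above both of the other. The calls were made on these same pairs, so this agreement was largely set by the selection. Over all genes tested, both Degrader libraries lay above both GDC0068 libraries at 22.1% and below them at 22.9%. The count depended on how the pairs were treated. Without the replicate block 53 genes (0.266%) were called, 23 higher (0.116%) and 30 lower (0.151%), all of them among the 2065 and in the same direction, and 2811 had an unadjusted p under 0.05. DESeq2 with the block called 428, and of these 64.0% were higher, against 48.5% in the edgeR fit. Without Degrader replicate 1 the count was 525, without GDC0068 replicate 1 it was 1065 and without Degrader replicate 2 it was 1190, of which 35.7% were higher.

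**Figure D1:**
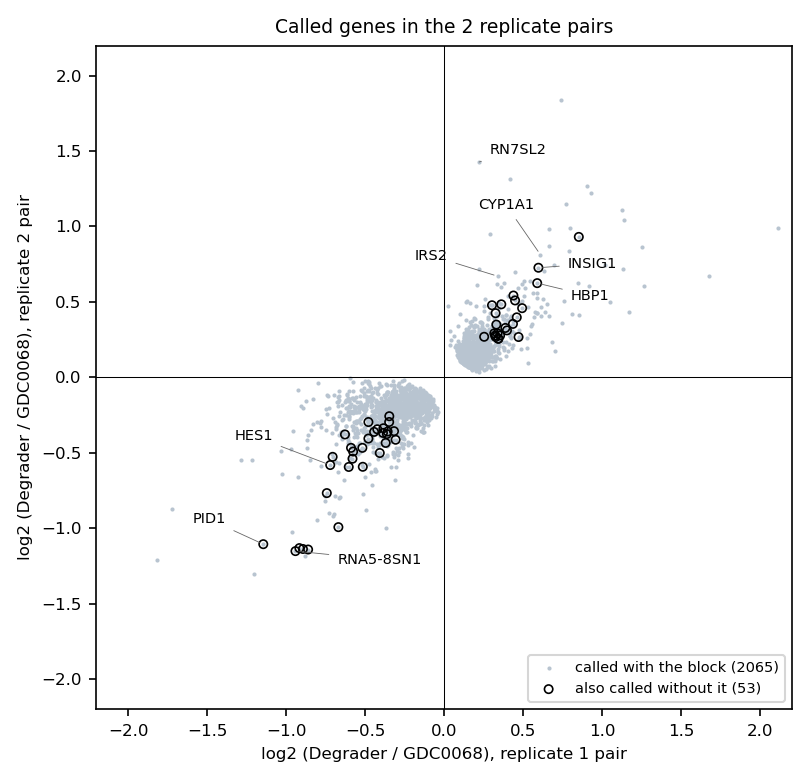
Each dot is 1 of the 2065 called genes, placed by its log2 difference between Degrader and GDC0068 in the replicate 1 pair (x axis) and in the replicate 2 pair (y axis). Open circles mark the 53 genes also called without the replicate block. All dots lie in the lower left or upper right part of the plot, which the selection of genes on these same pairs largely sets. RN7SL2 and IRS2 lie off the diagonal.

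The genes that encode the drug targets were read first. AKT1 had 229 and 235 CPM in DMSO, 200.4 and 197 CPM under GDC0068 and 190.0 and 187 CPM under Degrader. All 4 drug-treated libraries were below both DMSO libraries, and the difference between the drugs was -0.07 (SE 0.035, edgeR adjusted p = 0.193), which was not called. AKT2 had 96.7 and 102 CPM in DMSO, 102 and 96.8 CPM under GDC0068 and 107 and 106 CPM under Degrader, a difference of 0.10 (SE 0.04, edgeR adjusted p = 0.0953) that was not called. Across the 22 tested components of the PI3K and AKT pathway the median difference was -0.02 (-0.004 over all genes), with 3 called higher and 2 lower. Together these were 22.7%, against 10.4% of all genes. Without Degrader replicate 1 the median was 0.018 with 1 higher and 1 lower, without Degrader replicate 2 there were 0 higher and 2 lower, without GDC0068 replicate 1 3 higher and 1 lower, without GDC0068 replicate 2 5 higher and 2 lower, and without the block 0 higher and 1 lower. The catalytic subunit gene PIK3CA (0.21 (SE 0.038, edgeR adjusted p = 7.44e-04)), the kinase gene SGK3 (0.16 (SE 0.041, edgeR adjusted p = 0.00986)) and the lipid phosphatase gene INPP4B (0.20 (SE 0.045, edgeR adjusted p = 0.00521)) were higher under Degrader. PHLPP2, which encodes a phosphatase that acts on AKT, was lower (-0.16 (SE 0.042, edgeR adjusted p = 0.0155)).

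The member of that list with the widest gap was PID1, which encodes an adaptor protein studied for its effect on insulin signalling. PID1 (chromosome 2, 229023995 to 229271274, minus strand, no overlapping interval) had 117 and 116 CPM in DMSO, 219 and 171 CPM under GDC0068 and 99.1 and 79.5 CPM under Degrader. Both GDC0068 libraries were above both DMSO libraries, and both Degrader libraries were below all of the others. The difference between the drugs was -1.12 (SE 0.051, edgeR adjusted p = 8.79e-15), and it was also called without the block (edgeR adjusted p = 0.00177). Against DMSO, PID1 changed by 0.74 under GDC0068 (edgeR adjusted p = 6.37e-11) and -0.39 under Degrader (edgeR adjusted p = 1.68e-06). No lower difference between the drugs was found among called genes with at least 10 CPM and an interval of at least 200 bp.

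To see which gene families separate the drugs, 53 lists were described by their counts and medians. The lists hold 7661 of the genes between them, and some genes are in more than 1. The families furthest below the median of all genes were the cytosolic ribosomal proteins, the small nucleolar RNA host genes and the RNA polymerase I and nucleolar factors. Those furthest above it were the replication-dependent histones, the FOXO-type growth arrest genes, the mitosis and spindle genes and the sterol synthesis and uptake genes. Most other lists, among them the respiratory chain, the zinc finger genes, the BCL2 family and the amino acid transporters, had medians close to that of all genes.

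**Figure D2:**
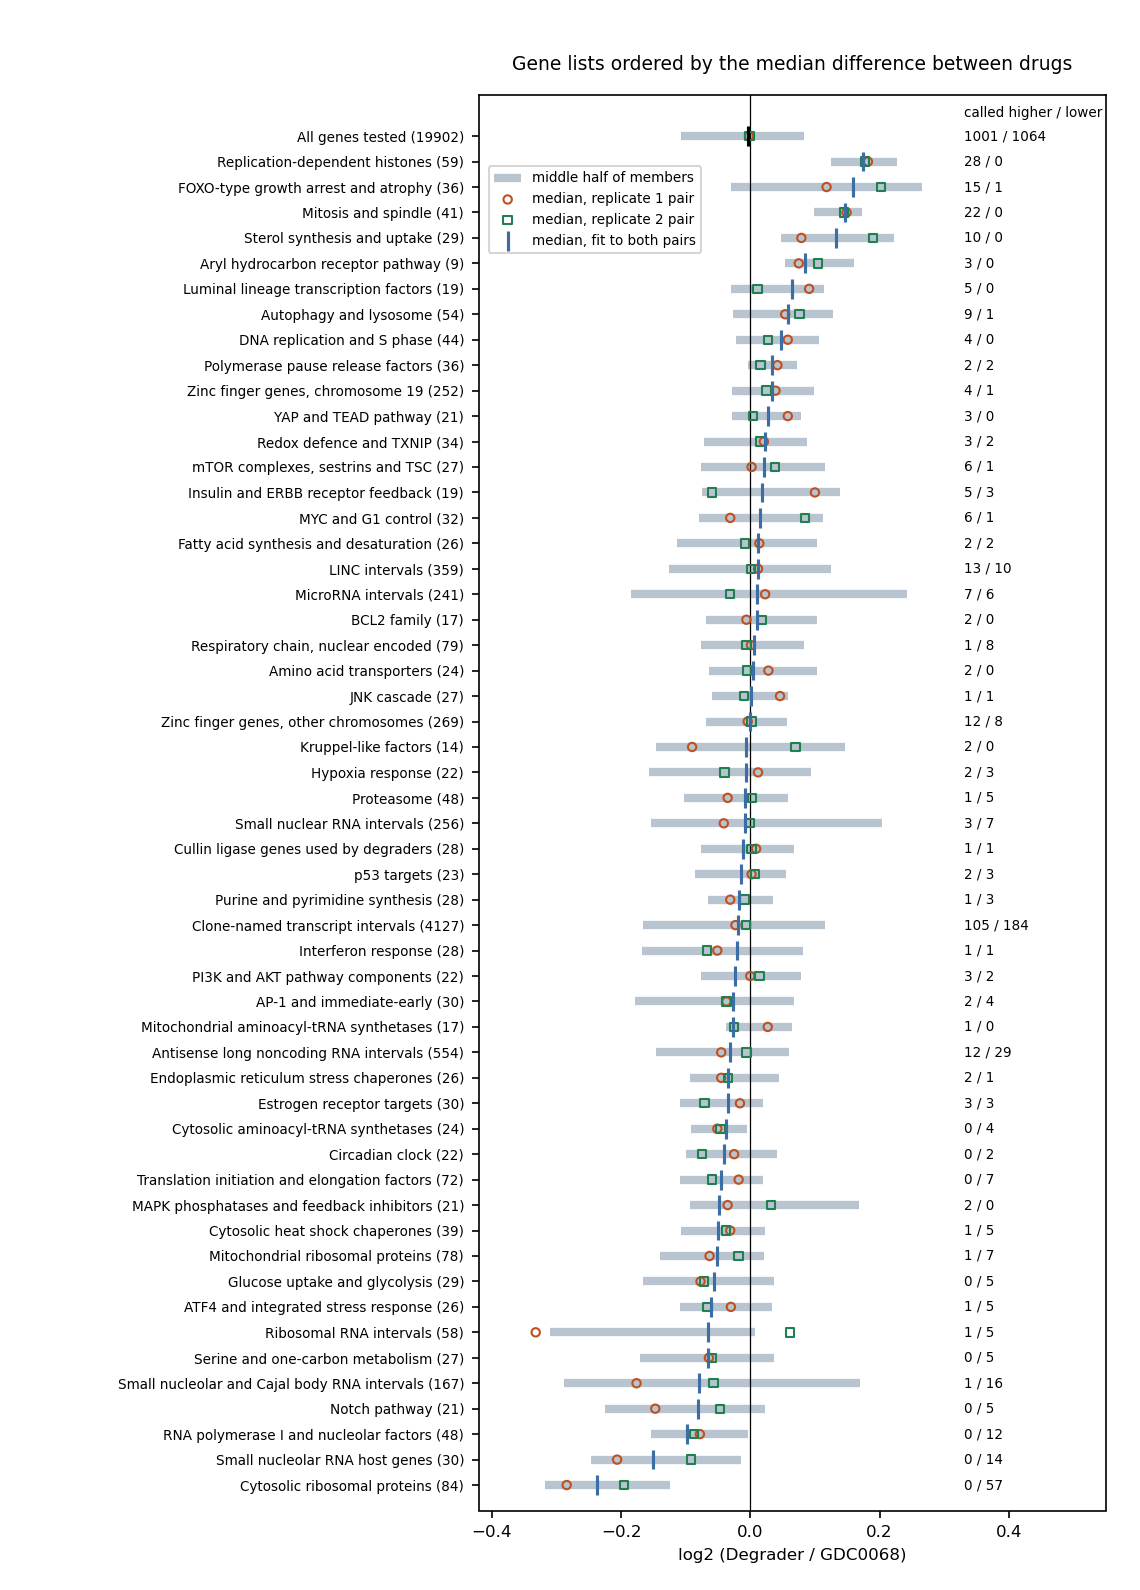
Gene lists are ordered by their median log2 difference between Degrader and GDC0068 (x axis), with the number of tested members in parentheses. Grey bars span the middle part (lower to upper quartile) of the members, vertical ticks mark the median of the fit, circles and squares mark the medians of the replicate 1 and replicate 2 pairs, and the numbers on the right count called genes. The ribosomal protein list sits at -0.237 and the histone list at 0.174, against -0.004 for all genes.

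Genes for the proteins of the cytosolic ribosome were lower under Degrader. Of the 84 tested members (84 in the table), 57 were called lower (67.9%) and 0 higher, against 5.35% called lower among all genes, and 3 of the 84 had a positive difference. The median was -0.24, with -0.28 in the replicate 1 pair and -0.20 in the replicate 2 pair. Both Degrader libraries lay below both GDC0068 libraries at 67 members, where the share over all genes was 22.9%. RPL10A, a protein of the large subunit, had 100.2 and 98.2 CPM in DMSO, 94.2 and 95.9 CPM under GDC0068 and 72.9 and 71.0 CPM under Degrader. The 2 GDC0068 libraries stood close to DMSO and the 2 Degrader libraries stood apart below, with a difference of -0.40 (SE 0.04, edgeR adjusted p = 2.23e-07). RPL35 ran the same way, with 113 and 106 CPM in DMSO, 105 and 102 CPM under GDC0068 and 81.6 and 78.8 CPM under Degrader and a difference of -0.37 (SE 0.039, edgeR adjusted p = 4.64e-07). The decrease was uneven: RPL3 (-0.06, edgeR adjusted p = 0.282) and RPLP0 (-0.11, edgeR adjusted p = 0.0619) were not called between the drugs, and each was lower than DMSO under both drugs, RPL3 with -0.27 under GDC0068 and -0.33 under Degrader.

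Transcripts of ribosomal protein genes typically open with a C followed by a run of pyrimidines, the feature through which mTORC1 controls their translation. Among the 67 ribosomal protein genes with a RefSeq promoter (GRCh38.p14), 49 had a C followed by 4 pyrimidines near the start site, against 14.9% of all 11119 promoters matched. Capitals below mark a pyrimidine run from its first C near the start, and in RPL7A the run reaches further upstream, in lower case. The stretches from 30 bases before to 20 bases after the RefSeq start are shown for members with clear differences, at chr6:35468371-35468420 (plus strand), chr9:124861938-124861987 (minus strand), chr9:133348188-133348237 (plus strand) and chr9:127451387-127451436 (minus strand).
RPL10A: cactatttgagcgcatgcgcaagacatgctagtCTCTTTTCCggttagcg
RPL35: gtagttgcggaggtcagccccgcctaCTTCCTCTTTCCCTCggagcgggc
RPL7A: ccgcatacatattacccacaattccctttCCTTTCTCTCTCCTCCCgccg
RPL12: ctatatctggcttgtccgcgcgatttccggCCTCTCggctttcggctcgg

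RPL7A (-0.38 (SE 0.046, edgeR adjusted p = 3.25e-06)) and RPL12 (-0.32 (SE 0.044, edgeR adjusted p = 2.75e-05)), printed above, were both lower under Degrader, and their intervals overlap small nucleolar RNA genes on the same strand. Of the 55 ribosomal protein members that overlap no other interval, 38 were called lower. Ribosomal protein genes have many processed copies elsewhere in the genome, and how the authors' counting treated reads shared with them is not given in the sources used here. Without the replicate block 9 members were called lower, with DESeq2 29, and without GDC0068 replicate 1 36.

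Small nucleolar RNA host genes are the noncoding or coding transcripts whose introns carry the RNAs that guide ribosomal RNA modification. Of 30 tested, 14 were called lower (46.7%, against 5.35% of all genes) and 0 higher, with a median of -0.15. GAS5, a host with a pyrimidine-rich start, had 158 and 159 CPM in DMSO, 147 and 131 CPM under GDC0068 and 124 and 125 CPM under Degrader, a difference of -0.16 (SE 0.04, edgeR adjusted p = 0.0108). SNHG29 had 47.6 and 51.3 CPM in DMSO, 41.8 and 38.2 CPM under GDC0068 and 33.2 and 31.0 CPM under Degrader, a difference of -0.32 (SE 0.064, edgeR adjusted p = 0.00174), and DANCR had 35.0 and 38.5 CPM in DMSO, 42.7 and 35.9 CPM under GDC0068 and 31.6 and 31.0 CPM under Degrader, a difference of -0.32 (SE 0.072, edgeR adjusted p = 0.0042). In these 3 genes both Degrader libraries were the lowest of the 6. The SNHG29 interval shares bases with others on both strands, and that of DANCR with an antisense neighbour. SNHG14 (0.25), SNHG31 (0.13) and ZFAS1 (0.09) had positive values and were not called. The count was 0 without the block, 2 with DESeq2, 3 without Degrader replicate 1, 3 without GDC0068 replicate 1 and 8 without Degrader replicate 2. The median was -0.076 without GDC0068 replicate 1.

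RNA polymerase I transcribes the ribosomal RNA genes, and nucleolar factors assemble their product into ribosomes. Of 48 tested genes in this list, 12 were called lower and 0 higher, with a median of -0.10. CD3EAP, a polymerase I subunit, had 14.01 and 14.3 CPM in DMSO, 14.3 and 12.1 CPM under GDC0068 and 9.54 and 8.85 CPM under Degrader, a difference of -0.52 (SE 0.10, edgeR adjusted p = 0.00155). POLR1C, a subunit shared by polymerases I and III, had 23.9 and 26.1 CPM in DMSO, 25.3 and 26.2 CPM under GDC0068 and 18.5 and 18.6 CPM under Degrader, a difference of -0.47 (SE 0.079, edgeR adjusted p = 2.94e-04), and its interval shares bases with an antisense neighbour. RRS1, a ribosome assembly factor, had 24.2 and 20.1 CPM in DMSO, 21.2 and 19.6 CPM under GDC0068 and 15.4 and 15.1 CPM under Degrader, a difference of -0.42 (SE 0.088, edgeR adjusted p = 0.00266). The RRS1 interval shares bases with neighbours on both strands. The largest subunit gene POLR1A had a difference of 0.00 (edgeR adjusted p = 0.977), with -0.27 under GDC0068 (edgeR adjusted p = 1.04e-05) and -0.28 under Degrader (edgeR adjusted p = 2.47e-06) against DMSO. Nucleolin (NCL, -0.06, edgeR adjusted p = 0.372) and nucleophosmin (NPM1, -0.06, edgeR adjusted p = 0.326) were likewise not called. Without the block 0 members were called, with DESeq2 1, without Degrader replicate 1 4, without Degrader replicate 2 6 and without GDC0068 replicate 1 7.

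Some intervals over the ribosomal RNA genes themselves also differed. Of 58 ribosomal RNA intervals tested, 5 were called lower and 1 higher, together 10.3% against 10.4% of all genes. The median of that list was -0.33 in the replicate 1 pair and 0.06 in the replicate 2 pair. RNA5-8SN1, a copy of the 5.8S ribosomal RNA gene (chromosome 21, 8439822 to 8439975), had 402 and 324 CPM in DMSO, 505 and 494 CPM under GDC0068 and 263 and 222 CPM under Degrader. Both GDC0068 libraries were above DMSO and both Degrader libraries below it, with a difference of -1.05 (SE 0.046, edgeR adjusted p = 7.05e-15). RNA5-8SN2 (-1.004), RNA5-8SN3 (-1.03) and FP671120.4 (-1.02) gave nearly the same values, and their sequences are near-identical copies, so they are 1 measurement and not 4. FP236383.3, a 29382 bp interval (chromosome 21, 8381264 to 8410645) that contains RNA5-8SN3, had 25699 and 21948 CPM under GDC0068 and 15358 and 12889 CPM under Degrader, a difference of -0.76 (SE 0.039, edgeR adjusted p = 7.08e-14), and was also called without the block (edgeR adjusted p = 0.0246). Within the same interval and upstream of the 5.8S copy, MIR6724-3 (8387968 to 8388453) had 917 and 917 CPM under GDC0068 and 893 and 886 CPM under Degrader, a difference of -0.04 (SE 0.036, edgeR adjusted p = 0.489), and was not called. The 8 MIR6724 and clone-named intervals of this kind at the 4 copies had differences from -0.04 to -0.02. Whether reads of mature ribosomal RNA enter these counts was not tested.

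Among translation initiation and elongation factors, 7 of 72 were called lower and 0 higher, with a median of -0.05. In either direction this is 9.72%, near the 10.4% of all genes, and 1 was called without the block, with DESeq2, without Degrader replicate 1 or without GDC0068 replicate 1. EEF1A2, the tissue-restricted form of the elongation factor that delivers aminoacyl-tRNA, had 81.1 and 79.4 CPM in DMSO, 56.9 and 60.5 CPM under GDC0068 and 41.9 and 47.1 CPM under Degrader. It was lower than DMSO under both drugs and lowest under Degrader, with a difference of -0.40 (SE 0.052, edgeR adjusted p = 9.56e-06) that was also called without the block (edgeR adjusted p = 0.0346). EIF5A (-0.27 (SE 0.063, edgeR adjusted p = 0.006)) and EIF4A1 (-0.15 (SE 0.041, edgeR adjusted p = 0.0192)) were the next by size among called members above 10 CPM. The called member EIF4EBP2P2 is a pseudogene with at most 1.06 CPM in the 4 drug libraries. Mitochondrial ribosomal proteins had 7 called lower and 1 higher of 78, together 10.3% against 10.4% of all genes, with a median of -0.05. The lower count was 2 without Degrader replicate 1 or GDC0068 replicate 1, 1 with DESeq2 and 0 without the block.

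Genes of the FOXO-type growth arrest and atrophy list were higher under Degrader. Of 36 tested, 15 were called higher and 1 lower, against 5.03% called higher and 5.35% called lower among all genes, and the median was 0.16 (0.12 and 0.20 in the pairs). Without the block 2 members were called (HBP1 and KLHL24), and with each library left out in turn 12 to 15 were higher. HBP1, a transcriptional repressor that restrains the G1 to S transition, had 20.0 and 20.8 CPM in DMSO, 30.2 and 33.4 CPM under GDC0068 and 45.4 and 51.5 CPM under Degrader. The values rose in steps from DMSO to GDC0068 to Degrader in each replicate, and the 3 arms did not overlap. The difference between the drugs was 0.61 (SE 0.062, edgeR adjusted p = 3.04e-07), also called without the block (edgeR adjusted p = 0.0134). HBP1 was 1 of the 5 members, among 31 with a RefSeq promoter, that held the FOXO core GTAAACA on either strand within 250 bases before the start, against 1.97% of all promoters, and the only 1 of the 13 called. Its promoter is shown from the motif to the start site (chr7:107168815-107169002, plus strand), with the motif in capitals.
HBP1: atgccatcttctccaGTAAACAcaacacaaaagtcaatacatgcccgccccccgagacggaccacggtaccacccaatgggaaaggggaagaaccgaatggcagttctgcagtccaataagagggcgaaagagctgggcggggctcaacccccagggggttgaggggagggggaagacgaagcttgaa

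KLHL24, a substrate adaptor of a cullin ligase, had 50.0 and 51.0 CPM in DMSO, 79.3 and 75.2 CPM under GDC0068 and 97.8 and 105 CPM under Degrader, with a difference of 0.39 (SE 0.044, edgeR adjusted p = 1.38e-06). CCNG2, a cyclin linked to cell cycle exit, had 28.0 and 39.3 CPM in DMSO, 46.6 and 56.9 CPM under GDC0068 and 57.1 and 76.4 CPM under Degrader, a difference of 0.36 (SE 0.052, edgeR adjusted p = 4.11e-05), and replicate 2 was above replicate 1 in every arm. TNFSF10, the death ligand TRAIL, had 20.8 and 22.3 CPM in DMSO, 27.1 and 29.2 CPM under GDC0068 and 35.9 and 39.9 CPM under Degrader, a difference of 0.43 (SE 0.068, edgeR adjusted p = 1.43e-04). For BCL6, a transcriptional repressor, the groups overlapped, with 182 and 231 CPM under GDC0068 and 231 and 279.6 CPM under Degrader, and the call of 0.31 (SE 0.036, edgeR adjusted p = 2.52e-06) rests on the pairing. The cyclin-dependent kinase inhibitor gene CDKN1B (0.26 (SE 0.068, edgeR adjusted p = 0.0131)), the ubiquitin ligase gene FBXO32 (0.25 (SE 0.038, edgeR adjusted p = 9.75e-05)) and the mTORC2 subunit gene RICTOR (0.25 (SE 0.039, edgeR adjusted p = 1.22e-04)) were also higher. GADD45A, a DNA damage and growth arrest gene, was the member called lower (-0.32 (SE 0.095, edgeR adjusted p = 0.0325)). Other textbook members did not separate the drugs: CDKN1A had -0.11 (edgeR adjusted p = 0.221), BCL2L11 -0.06 (edgeR adjusted p = 0.54) and FOXO1 0.06 (edgeR adjusted p = 0.599).

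Receptor genes under feedback from the same pathway split in direction. Of 19 tested, 5 were called higher and 3 lower under Degrader, with a median of 0.02, and 0 of the 8 were called without the block. In either direction the calls were 42.1%, against 10.4% of all genes. DESeq2 called 5 higher and 0 lower. Without Degrader replicate 1 there were 3 higher and 1 lower with a median of -0.012, without GDC0068 replicate 1 5 higher and 2 lower with a median of -0.061, and without GDC0068 replicate 2 8 higher and 2 lower. IRS2, the adaptor of the insulin receptor, had 11.1 and 10.9 CPM in DMSO, 21.9 and 19.1 CPM under GDC0068 and 27.7 and 30.3 CPM under Degrader. It rose in both drug arms, and both Degrader libraries were above both GDC0068 libraries, with a difference of 0.51 (SE 0.085, edgeR adjusted p = 2.74e-04) and, without the block, an edgeR adjusted p of 0.0614. The receptors ERBB3 (0.30 (SE 0.036, edgeR adjusted p = 4.46e-06)), INSR (0.25 (SE 0.043, edgeR adjusted p = 3.50e-04)) and IGF1R (0.19 (SE 0.038, edgeR adjusted p = 0.00161)) and the docking protein gene GAB1 (0.20 (SE 0.039, edgeR adjusted p = 0.00118)) were higher. The fibroblast growth factor receptors FGFR3 (-0.40 (SE 0.061, edgeR adjusted p = 7.81e-05)), FGFR4 (-0.32 (SE 0.085, edgeR adjusted p = 0.015)) and FGFR1 (-0.16 (SE 0.046, edgeR adjusted p = 0.0199)) were lower. IRS1 did not differ by call (-0.03, edgeR adjusted p = 0.699).

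Genes of sterol synthesis and uptake were higher under Degrader. Of 29 tested, 10 were called higher (34.5%, against 5.03% of all genes) and 0 lower. A positive difference was found at 27, and the median was 0.13 (0.08 and 0.19 in the pairs). INSIG1, the membrane protein that holds the SREBP complex in the endoplasmic reticulum and is itself an SREBP target, had 20.98 and 21.5 CPM in DMSO, 19.9 and 19.8 CPM under GDC0068 and 30.2 and 32.8 CPM under Degrader. The GDC0068 libraries stood slightly below DMSO and the Degrader libraries well above it, with a difference of 0.66 (SE 0.077, edgeR adjusted p = 2.01e-06), also called without the block (edgeR adjusted p = 0.00827). Among the enzymes, MVK (mevalonate kinase) had 121 and 125 CPM in DMSO, 113 and 112 CPM under GDC0068 and 132 and 131 CPM under Degrader, a difference of 0.22 (SE 0.036, edgeR adjusted p = 2.09e-04). Its GDC0068 libraries were below DMSO and its Degrader libraries above. FDFT1 (squalene synthase) had a difference of 0.20 (SE 0.038, edgeR adjusted p = 9.72e-04). SREBF2, which encodes the SREBP form devoted to sterol genes, was higher (0.18 (SE 0.034, edgeR adjusted p = 0.00109)), as were the cholesterol transport genes NPC2 (0.33 (SE 0.097, edgeR adjusted p = 0.0261)) and STARD4 (0.31 (SE 0.098, edgeR adjusted p = 0.042)).

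Among other enzymes of sterol synthesis, HMGCS1 (0.07, edgeR adjusted p = 0.486) and IDI1 (-0.08, edgeR adjusted p = 0.314) were not called. A sterol element with the letters TCACNCCAC was found on either strand in 1 of 23 matched sterol promoters, that of SREBF2, against 0.84% of all promoters. The count of called sterol genes was 2 without the block (INSIG1 among them), 5 with DESeq2, 4 without Degrader replicate 2, 5 without Degrader replicate 1 and 6 without GDC0068 replicate 1.

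Among fatty acid synthesis genes, 2 of 26 tested were called higher and 2 lower, together 15.4% against 10.4% of all genes. The median was 0.01, and it was -0.013 without Degrader replicate 2 and -0.022 without GDC0068 replicate 1. SCD, the desaturase that makes monounsaturated fatty acids, had 96.8 and 94.5 CPM in DMSO, 72.4 and 70.3 CPM under GDC0068 and 93.0 and 98.4 CPM under Degrader. Its Degrader libraries matched DMSO while its GDC0068 libraries lay below both, with a difference of 0.42 (SE 0.042, edgeR adjusted p = 2.23e-07), also called without the block (edgeR adjusted p = 0.00827). Against DMSO, SCD changed by -0.42 under GDC0068 (edgeR adjusted p = 5.52e-08) and 0.00 under Degrader (edgeR adjusted p = 0.999). ACSL1, which activates long-chain fatty acids, was higher (0.20 (SE 0.053, edgeR adjusted p = 0.0136)), and FADS3 (-0.22 (SE 0.072, edgeR adjusted p = 0.0459)) and SREBF1 (-0.12 (SE 0.037, edgeR adjusted p = 0.0424)) were lower. Neither lower call held without the block, with DESeq2, with the 4 drug libraries alone, without the filter, or without Degrader replicate 1, GDC0068 replicate 2 or DMSO replicate 1. The synthase FASN (-0.04, edgeR adjusted p = 0.534) and the carboxylase ACACA (0.04, edgeR adjusted p = 0.571) were below DMSO under both drugs and were not called between them.

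**Figure D3:**
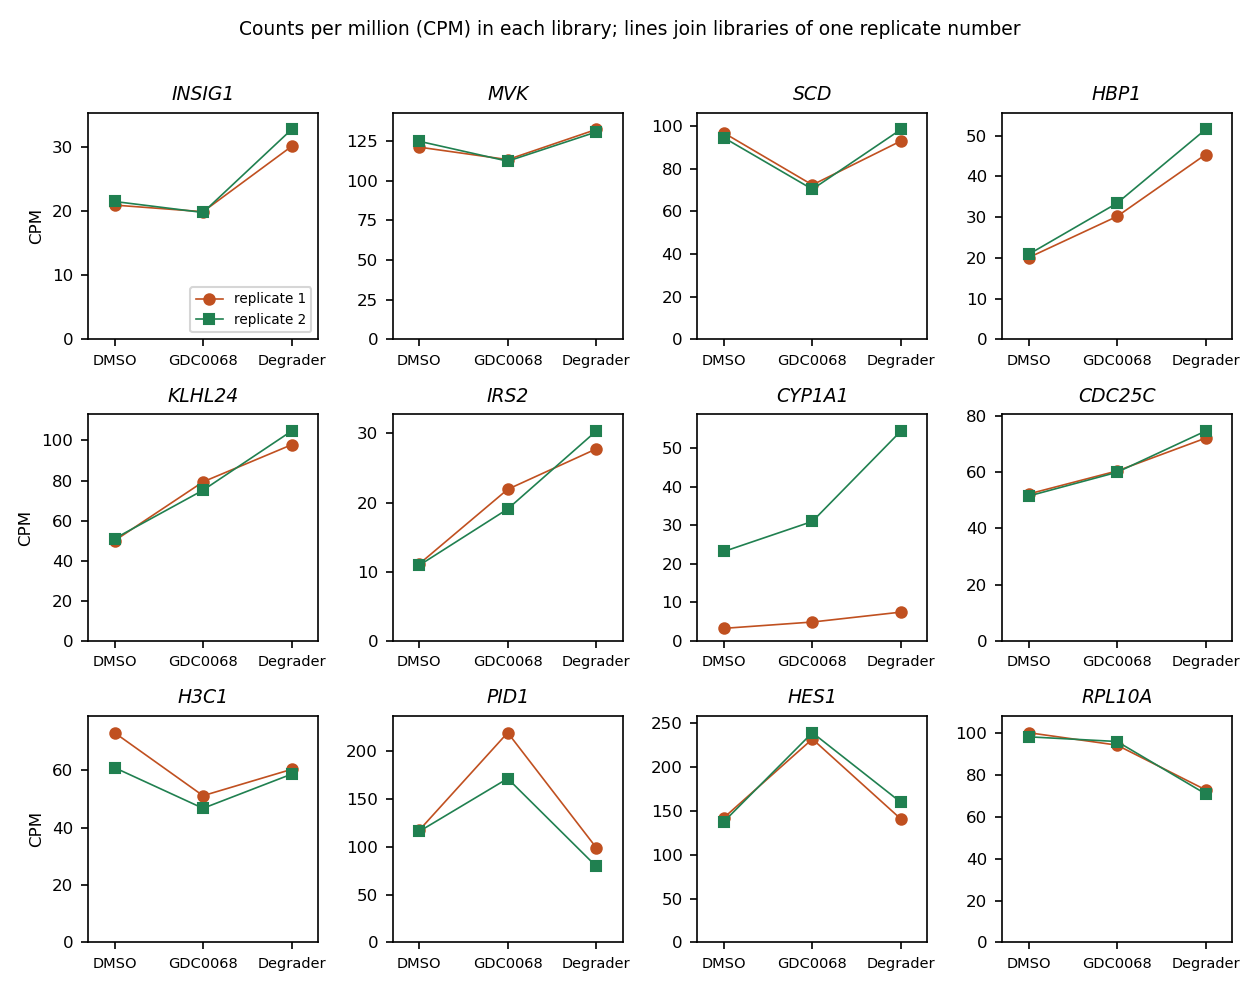
Library-scaled counts in CPM (y axis, starting at 0) of 12 genes in each of the 6 libraries, with circles for replicate 1 and squares for replicate 2 joined by lines. INSIG1, MVK and SCD dip or stay level under GDC0068 and are higher under Degrader, HBP1, KLHL24 and IRS2 climb over the 3 arms, PID1 and HES1 peak under GDC0068, and CYP1A1 differs more between the replicates than between the arms.

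Mitosis and spindle genes were slightly and evenly higher under Degrader. Of 41 tested, 22 were called higher (53.7%, against 5.03% of all genes) and 0 lower. A positive difference was found at 39, and the median was 0.147 (0.149 in the replicate 1 pair and 0.145 in the replicate 2 pair). CDC25C, the phosphatase that activates the mitotic kinase, had 52.2 and 51.5 CPM in DMSO, 60.4 and 59.9 CPM under GDC0068 and 72.0 and 74.6 CPM under Degrader, a difference of 0.29 (SE 0.046, edgeR adjusted p = 1.60e-04). NUSAP1, a microtubule-binding spindle protein, had 133 and 144 CPM in DMSO, 134 and 143 CPM under GDC0068 and 158 and 166 CPM under Degrader, a difference of 0.22 (SE 0.034, edgeR adjusted p = 1.18e-04), and KIF11, the motor that separates spindle poles, had 139 and 154 CPM in DMSO, 139 and 150.1 CPM under GDC0068 and 158 and 169 CPM under Degrader, a difference of 0.17 (SE 0.034, edgeR adjusted p = 0.00162). In these 3 genes both Degrader libraries were above both GDC0068 libraries, and for NUSAP1 and KIF11 the GDC0068 libraries fell among those of DMSO. The proliferation marker MKI67 (0.18 (SE 0.039, edgeR adjusted p = 0.00388)) and the kinesin KIF14 (0.19 (SE 0.04, edgeR adjusted p = 0.00209)) were higher, whereas CDK1 (0.10, edgeR adjusted p = 0.179), CCNA2 (0.05, edgeR adjusted p = 0.68) and CDC20 (-0.09, edgeR adjusted p = 0.443) were not called. The count was 0 without the block, 6 with DESeq2, 3 without Degrader replicate 1 and 14 without Degrader replicate 2.

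Late cell cycle promoters often pair CCAAT boxes with the element TTTGAA (CHR). Within 250 bases before the RefSeq start and on either strand, CCAAT was found in 28 of 36 matched mitosis promoters, against 35.2% of all, and TTTGAA in 19 of 36, against 8.01% of all. Among the 19 called members with a promoter the counts were 14 and 12. The KIF11 promoter (chr10:92593062-92593129, plus strand) holds both, each on the opposite strand, and is shown up to the start site with them in capitals.
KIF11: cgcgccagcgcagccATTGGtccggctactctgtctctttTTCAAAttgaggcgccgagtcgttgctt

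Replication-dependent histone genes, which lie in clusters and are transcribed in S phase, were higher under Degrader than under GDC0068. Of 59 tested (60 in the table), 28 were called higher (47.5%, against 5.03% of all genes) and 0 lower. A positive difference was found at 58, and the median was 0.17 (0.18 in each pair). H3C1 had 73.0 and 60.9 CPM in DMSO, 51.1 and 46.7 CPM under GDC0068 and 60.3 and 58.6 CPM under Degrader, a difference of 0.28 (SE 0.053, edgeR adjusted p = 8.60e-04). H2AC20 had 117 and 113 CPM in DMSO, 101 and 98.1 CPM under GDC0068 and 111 and 122 CPM under Degrader, a difference of 0.23 (SE 0.042, edgeR adjusted p = 6.89e-04). In both genes the GDC0068 libraries were the lowest of the 6, and the Degrader libraries lay between them and DMSO or level with DMSO. H2AC6 had 112 and 113 CPM in DMSO, 126 and 127 CPM under GDC0068 and 148 and 149 CPM under Degrader, and here both drug arms were above DMSO, with a difference of 0.23 (SE 0.035, edgeR adjusted p = 7.94e-05). The widest difference among called members was that of H2BC14, a gene of few counts with 7.19 and 6.43 CPM in DMSO, 3.89 and 3.91 CPM under GDC0068 and 5.33 and 6.35 CPM under Degrader, a difference of 0.58 (SE 0.15, edgeR adjusted p = 0.0132). H2AC11 was the member with a negative value (-0.34, edgeR adjusted p = 0.424), at 2.36 CPM or fewer.

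CCAAT was found in 46 of 53 matched histone promoters and TATAAA in 34 of 53, against 35.2% and 5.45% of all promoters. Both stand before H2AC6, whose promoter (chr6:26123985-26124171, plus strand) is shown up to the start site with 3 CCAAT boxes, 2 of them on the opposite strand, and the TATA box in capitals.
H2AC6: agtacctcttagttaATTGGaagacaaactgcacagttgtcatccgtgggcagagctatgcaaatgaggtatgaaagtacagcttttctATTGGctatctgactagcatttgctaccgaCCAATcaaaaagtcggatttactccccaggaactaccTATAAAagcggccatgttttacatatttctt
Of the 54 histone intervals that overlap no other interval, 24 were called higher. Histone genes of 1 type are near-identical in their coding parts, so reads could be shared between them. The count was 0 without the block, 7 with DESeq2, 5 without Degrader replicate 2 and 12 without GDC0068 replicate 1. Of the genes of DNA replication and S phase, 4 of 44 (9.09%) were called higher and 0 lower, with a median of 0.05, against 5.03% called higher among all genes. That count was 0 without the block, 1 with DESeq2, 1 without Degrader replicate 1, 2 without Degrader replicate 2 or GDC0068 replicate 1 and 8 without GDC0068 replicate 2. The difference between this list and the histones was not tested.

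Notch receptors are cut on ligand binding and their inner part acts with RBPJ to switch on HES genes. Of 21 tested pathway genes, 5 were called lower under Degrader (23.8%) and 0 higher, with a median of -0.08. The share called lower among all genes was 5.35%. Without the block 2 members were called lower (HES1 and JAG2) and 0 higher. HES1, the transcriptional repressor at the end of the pathway, had 142 and 138 CPM in DMSO, 232 and 239 CPM under GDC0068 and 141 and 159.8 CPM under Degrader. Both GDC0068 libraries were far above the other 4, and the Degrader libraries lay close to DMSO, with a difference of -0.65 (SE 0.04, edgeR adjusted p = 7.62e-12), also called without the block (edgeR adjusted p = 0.00177). Against DMSO, HES1 changed by 0.75 under GDC0068 (edgeR adjusted p = 8.87e-13) and 0.10 under Degrader (edgeR adjusted p = 0.0709). The ligand gene JAG2 had 73.8 and 76.0 CPM in DMSO, 59.4 and 60.8 CPM under GDC0068 and 46.7 and 49.5 CPM under Degrader. It was lower than DMSO under both drugs and lowest under Degrader, with a difference of -0.32 (SE 0.048, edgeR adjusted p = 6.23e-05), also called without the block (edgeR adjusted p = 0.045). The receptor gene NOTCH1 (-0.21 (SE 0.037, edgeR adjusted p = 4.93e-04)), the feedback regulator gene NRARP (-0.22 (SE 0.039, edgeR adjusted p = 5.22e-04)) and HES4 (-0.38 (SE 0.095, edgeR adjusted p = 0.0108)) were lower. NOTCH2 (0.01, edgeR adjusted p = 0.891), NOTCH3 (-0.08, edgeR adjusted p = 0.164) and RBPJ (0.13, edgeR adjusted p = 0.0803) were not called. The median of the list was -0.039 without Degrader replicate 1, -0.048 without GDC0068 replicate 1, -0.127 without Degrader replicate 2 and -0.134 without GDC0068 replicate 2.

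The RBPJ core GTGGGAA was found on either strand in 3 of 19 matched Notch promoters, among them HES1 and HES4, against 4.99% of all promoters. The HES1 promoter (chr3:194136048-194136147, plus strand) is shown up to the start site, with the motif in capitals.
HES1: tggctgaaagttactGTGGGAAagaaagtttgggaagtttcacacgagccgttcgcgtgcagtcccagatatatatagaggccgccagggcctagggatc

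Smaller lists separated the drugs through single members. Over all genes 5.03% were called higher and 5.35% lower, and the counts below are to be read beside these shares. In the aryl hydrocarbon receptor pathway, 3 of 9 were called higher and 0 lower. CYP1A1, a drug-metabolising enzyme and the classic target of that receptor, had 3.24 and 23.2 CPM in DMSO, 4.88 and 31.0 CPM under GDC0068 and 7.45 and 54.4 CPM under Degrader. The replicates differed more than the arms, the groups overlapped, and the difference of 0.76 (SE 0.088, edgeR adjusted p = 1.99e-06) was not called without the block (edgeR adjusted p = 0.731). CYP1B1 ran the same way, with 97.5 and 183 CPM under GDC0068 and 122 and 228 CPM under Degrader, a difference of 0.32 (SE 0.036, edgeR adjusted p = 1.38e-06) and, without the block, an edgeR adjusted p of 0.688. The receptor gene AHR itself had -0.10 (edgeR adjusted p = 0.189). Among AP-1 and immediate-early genes, 2 of 30 were called higher and 4 lower (2 and 2 with DESeq2 or without Degrader replicate 1, 4 and 4 without GDC0068 replicate 1, 0 and 1 without the block), and those lower were led by IER5 with 112 and 113 CPM in DMSO, 145 and 136 CPM under GDC0068 and 111 and 108 CPM under Degrader. The GDC0068 libraries of IER5 were above all of the others and the Degrader libraries stood near DMSO, with a difference of -0.36 (SE 0.037, edgeR adjusted p = 2.74e-07), also called without the block (edgeR adjusted p = 0.0154). JUNB (-0.27 (SE 0.05, edgeR adjusted p = 8.61e-04)) ran with IER5, while the transcription factor genes KLF6 (0.25 (SE 0.037, edgeR adjusted p = 7.51e-05)) and ATF3 (0.23 (SE 0.039, edgeR adjusted p = 3.42e-04)) were higher under Degrader, and FOS was not called (0.05, edgeR adjusted p = 0.777).

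Of 54 autophagy and lysosome genes, 9 were called higher and 1 lower, with a median of 0.06. Together these were 18.5%, against 10.4% of all genes (5.03% higher and 5.35% lower). The higher count was 1 without the block, 4 with DESeq2 and 4 without Degrader replicate 1. CALCOCO1, an autophagy receptor, had 22.4 and 25.2 CPM in DMSO, 37.1 and 44.2 CPM under GDC0068 and 54.8 and 58.4 CPM under Degrader, rising in steps over the 3 arms, with a difference of 0.48 (SE 0.057, edgeR adjusted p = 2.66e-06). WIPI2, which binds the forming autophagosome, had 64.4 and 67.1 CPM in DMSO, 73.2 and 76.5 CPM under GDC0068 and 95.7 and 96.0 CPM under Degrader, a difference of 0.36 (SE 0.041, edgeR adjusted p = 1.93e-06) that was also called without the block (edgeR adjusted p = 0.0209). MAP1LC3B (0.32 (SE 0.072, edgeR adjusted p = 0.00481)), OPTN (0.31 (SE 0.059, edgeR adjusted p = 0.00111)) and NBR1 (0.23 (SE 0.041, edgeR adjusted p = 7.28e-04)) were higher, and the lysosomal protease gene CTSD was lower (-0.18 (SE 0.046, edgeR adjusted p = 0.00941)), a call that was lost without the block, with DESeq2, with robust estimation and without Degrader replicate 1, Degrader replicate 2 or GDC0068 replicate 2. Of 19 luminal lineage transcription factors, 5 were called higher (26.3%, against 5.03% of all genes) and 0 lower. Those higher included MYB (0.20 (SE 0.043, edgeR adjusted p = 0.00272)) and ZNF217 (0.16 (SE 0.034, edgeR adjusted p = 0.00328)). The higher count was 0 without the block, 1 without Degrader replicate 1 and 2 without Degrader replicate 2, and without GDC0068 replicate 1 it was 2 with 2 lower. Glycolysis genes (5 of 29 lower, 0 higher, with PFKL at -0.18 and GAPDH at -0.18), serine and one-carbon genes (5 of 27 lower, 0 higher, with MTHFD1L at -0.23) and genes of ATF4 and the integrated stress response (5 of 26 lower, 1 higher, with CEBPB at -0.32) had medians from -0.07 to -0.06. In either direction 17.2%, 18.5% and 23.1% were called, against 10.4% of all genes. Centred on the median of all genes of like interval length, as described below, their medians were -0.054, -0.08 and -0.015. Without the block 0 members of these 3 lists were called. With DESeq2 0 glycolysis, 0 serine and 1 stress response genes were called lower, without Degrader replicate 1 they were 1, 3 and 1, without Degrader replicate 2 they were 2, 1 and 2, and without GDC0068 replicate 1 they were 2, 0 and 4. Without GDC0068 replicate 2 the stress response list had 3 lower.

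Each drug was also read against DMSO, with the same 2 DMSO libraries in both contrasts, so the values stand side by side only. Degrader differed from DMSO at 6114 genes (30.7%) and GDC0068 at 3540 (17.8%). Without the block the counts were 3039 (15.3%) and 712 (3.58%). For ribosomal proteins the median was -0.09 under GDC0068, with 26 of 84 called lower and 3 higher (8.91% and 8.87% of all genes), and -0.32 under Degrader, with 75 lower and 0 higher (15.7% and 15.1% of all genes). FOXO-type genes had 0.275 under GDC0068, with 23 of 36 higher, and 0.44 under Degrader, with 27 higher. Mitosis genes had -0.02 under GDC0068, with 1 of 41 higher, and 0.10 under Degrader, with 18 higher. Sterol genes had -0.04 under GDC0068, with 5 of 29 lower and 0 higher, and 0.08 under Degrader, with 10 higher and 0 lower. Histones had -0.21 under GDC0068, with 34 of 59 lower, and -0.03 under Degrader, with 16 lower and 6 higher. Histone medians against the DMSO library of the same number were -0.32 and -0.12 under GDC0068 and -0.14 and 0.06 under Degrader, so they varied more between the replicates than those of ribosomal proteins, which were -0.04 and -0.15 under GDC0068 and -0.29 and -0.35 under Degrader.

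**Figure D4:**
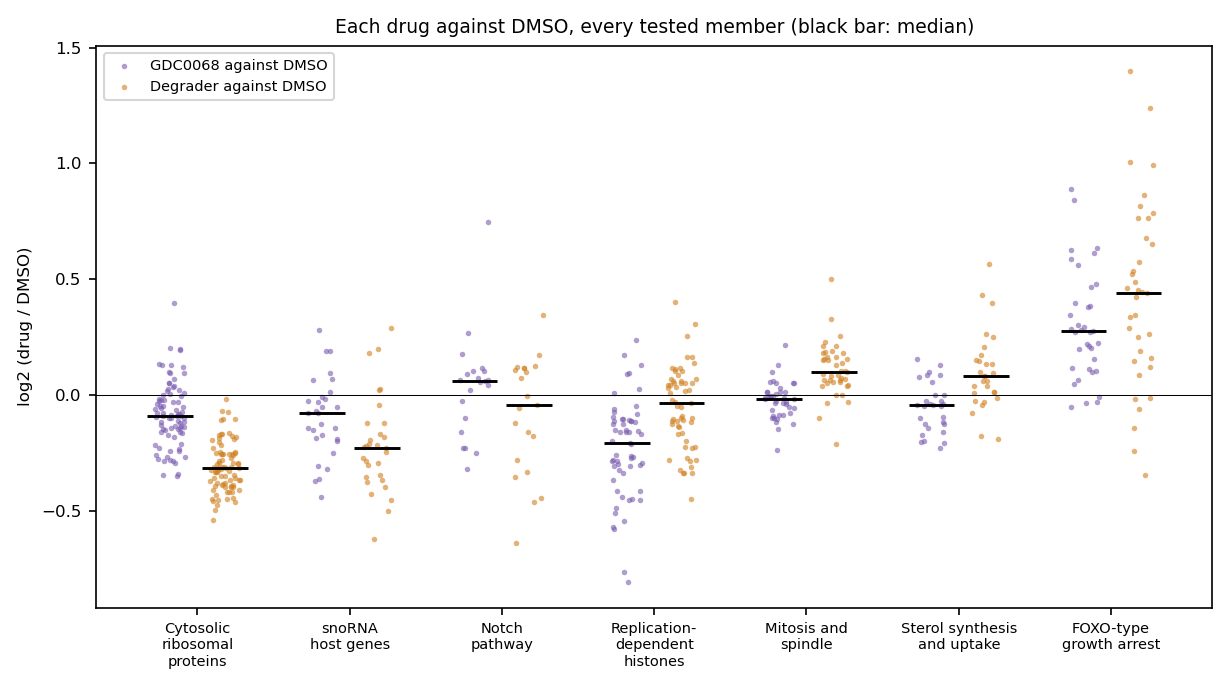
Log2 fold change against DMSO (y axis) of every tested member of 7 gene lists, under GDC0068 (purple) and Degrader (orange), with a black bar at each median. The same DMSO libraries serve both colours. The ribosomal protein median lies at -0.089 under GDC0068 and -0.316 under Degrader, and the histone median at -0.206 and -0.033.

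The difference between the drugs moved with the length of the gene interval. With the genes tested split into 8 equal bins by length, the median was -0.035 for those of 7 to 1165 bp, where 5.27% were called lower and 2.61% higher, and then went from -0.09 for intervals of 1166 to 3324 bp to 0.05 for those of 86452 to 2054523 bp. Genes called lower made up 11.5% of the former bin, and genes called higher 14.4% of the latter. The shortest bin, which holds most histone intervals, thus departs from the order of the others. Ribosomal protein intervals are short: in the range that holds most of them (2084 to 7296 bp) all genes had a median of -0.065, and 10.4% were called lower. Centred on the median of their length bin, ribosomal proteins had a median of -0.18, host genes -0.11, polymerase I and nucleolar factors -0.09, FOXO-type genes 0.14, sterol genes 0.145, mitosis genes 0.13 and histones 0.23. The part of length in the family differences was not tested beyond this centring.

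**Figure D5:**
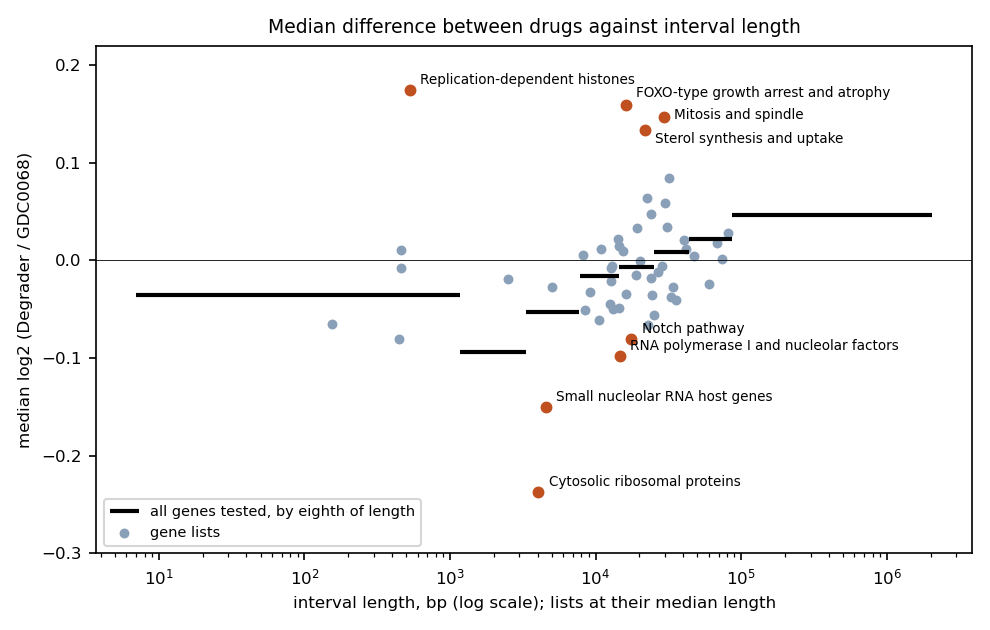
Median log2 difference between Degrader and GDC0068 (y axis) against interval length in bp (x axis, log scale). Black bars are all genes tested in 8 bins of length, drawn from the shortest to the longest member, and dots are gene lists at their median length. Past the first bar, at -0.035, the black bars climb from -0.094 in the bin of 1166 to 3324 bp to 0.046 in the bin of the longest genes, and the named lists lie off the bars.

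Among called genes with at least 10 CPM and an interval of at least 200 bp, 1865 in all, the 8 highest values belonged to CYP1A1, RN7SL2, INSIG1, HBP1, BMF, MIR6510, AC144521.1 and AL031600.2. RN7SL2, an RNA of the signal recognition particle, had 1022 and 213 CPM under GDC0068 and 1191 and 572 CPM under Degrader; the groups overlapped and the edgeR adjusted p was 0.0101 with the block and 0.684 without it. BMF, a BH3-only protein that promotes apoptosis, had 16.3 and 15.3 CPM in DMSO, 13.6 and 19.1 CPM under GDC0068 and 22.8 and 24.6 CPM under Degrader, a difference of 0.53 (SE 0.1, edgeR adjusted p = 8.59e-04). The 8 lowest values were those of PID1, AC112777.1, FP236383.3, SNORD24, DRAP1, HES1, AC140847.2 and POLR2I. AC112777.1, a clone-named interval of 1566 bp, had 248 and 190.2 CPM in DMSO, 254 and 267 CPM under GDC0068 and 159.5 and 134 CPM under Degrader, a difference of -0.84 (SE 0.058, edgeR adjusted p = 8.98e-11), also called without the block (edgeR adjusted p = 0.0109). DRAP1, a subunit of a general transcriptional repressor, had 19.3 and 14.7 CPM under GDC0068 and 9.96 and 11.5 CPM under Degrader, a difference of -0.66 (SE 0.11, edgeR adjusted p = 3.16e-04). POLR2I, a subunit of RNA polymerase II, had 17.5 and 13.2 CPM under GDC0068 and 9.64 and 10.1 CPM under Degrader, a difference of -0.62 (SE 0.11, edgeR adjusted p = 3.83e-04). SNORD24 lies inside the RPL7A interval described above. Of these 16 genes, 6 were also called without the block: INSIG1, HBP1, PID1, AC112777.1, FP236383.3 and HES1.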

How the data were processed

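The authors deposited 1 table of raw counts per gene interval, with 1 column per library. The values are whole numbers whose totals differ between libraries. The submitters' processing notes name cutadapt 1.14, Bowtie 1.2.2, SAMtools 1.3.1, HISAT2 2.2.1 and limma, and the builds dm3, hg38 and GRCh38, with no role or order. The counting tool, the part of a gene counted, the use of strand, the treatment of duplicates and any use of a spike-in are not given in the sources used here. Each can change the counts, and without strand, reads of overlapping or antisense genes cannot be told apart: among intervals tested, 14.8% share bases with a neighbour on their own strand and 32.0% with one on either strand. Starts in the table count from 0 and are written here counting from 1. RefSeq promoters (GRCh38.p14) matched 11119 of 19897 gene names, with a median distance of 25 bp between the RefSeq start and the table's start and 68.9% within 100 bp.

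Groups and replicate numbers came from the labels. The main test was that of edgeR 4.0.16 under R 4.3.3. The default filterByExpr (minimum count 10, minimum total 15) removed 431 intervals. TMM scaling factors, by edgeR, lay between 0.997 and 1.003. All 6 libraries entered 1 quasi-likelihood fit with a term per arm and a term per replicate number, which leaves 2 residual degrees of freedom beside 24.8 prior ones, and the common biological coefficient of variation was 3.11%. P-values were adjusted by Benjamini-Hochberg over all 19902 genes. The standard error is the size of the log2 difference divided by the square root of F. The block was used because the series describes 2 independent experiments and because libraries of one number deviated together from their arm means: the correlation of these deviations across genes was 0.204 between Degrader and GDC0068, 0.220 between Degrader and DMSO and 0.177 between GDC0068 and DMSO. Whether the libraries of an arm came from separate cultures is not stated beyond this. Where 1 library was left out, the lone library of that arm was assumed to vary like the others.

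The members and the gene lists were chosen with earlier results of these data known. A list is described by its counts and median beside those of all genes, with no test of its own. Named genes are AKT1 and AKT2, the 8 highest and 8 lowest differences among called genes with at least 10 CPM, at least 200 bp and both pairs in 1 direction, the 3 highest and 3 lowest of those also called without the block, up to 5 called members of each family by adjusted p, and members whose role the text needs. Some genes that this rule names are not reported here. Alternatives were no block, the 4 drug libraries alone, DESeq2 (1.42.0) size factors or test, library totals, limma-voom (limma 3.58.1), robust estimation, no filter, intervals over 1000 bp that overlap no other, and each library left out.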

Additional observations from a re-analysis of the deposited data

How the results depend on the processing

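The medians of 8 families (ribosomal proteins, host genes, polymerase I factors, Notch, FOXO-type, sterol, mitosis and histone genes) kept their sign under all alternatives run. These families lay furthest out on each side in these same data, and alternatives that change only the test or scaling hardly move a median. Without 1 library, the median ran from -0.134 to -0.039 for Notch and from -0.194 to -0.076 for host genes. The medians of several lists near 0 did not keep their sign. Without 1 library the median reached -0.022 for fatty acid synthesis, -0.061 for receptor feedback, 0.018 for the PI3K and AKT pathway and -0.009 for the respiratory chain. Without the replicate block the drugs differed at 53 genes (2065 with it), Degrader and DMSO at 3039 and GDC0068 and DMSO at 712. DESeq2 gave 428, 2907 and 1108. The 4 drug libraries alone without the block, an alternative chosen after seeing the data, gave 23. With 1 library left out, the counts ran from 525 to 2192, from 3701 to 6920 and from 1631 to 3555. The median of the mitosis list was 0.150 with DESeq2 size factors or the DESeq2 test, 0.144 with library totals, 0.152 without the filter and 0.125 to 0.168 with 1 library left out. That of the histones was 0.178 with DESeq2 size factors, 0.183 without the filter, 0.126 over long intervals without overlap and 0.128 to 0.239 with 1 library left out, and that of the polymerase I list -0.098 to -0.075. Centred on length bins, also chosen after seeing the data, these lists had 0.134, 0.226 and -0.092. Of the 116 genes named by rule, 95 lost their call without the block. AKT1 and AKT2 are among the 116 and had no call to lose. With DESeq2 44 lost it, a count that leaves out genes to which DESeq2 gave no adjusted p. The cause was not tested. Counting error of 3.63% to 4.03% at the median gene limits single differences more than family medians, and 2 experiments limit both.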

Other observations

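Families outside those above were described by the same counts. Nuclear genes of the respiratory chain had 8 called lower and 1 higher of 79, together 11.4% against 10.4% of all genes. Their median was 0.01, and the intervals of those lower were 1042 (UQCRQ) to 6999 bp (NDUFC2) long. UQCRQ of complex III had 27.0 and 24.9 CPM in DMSO, 29.9 and 26.5 CPM under GDC0068 and 20.99 and 21.03 CPM under Degrader, a difference of -0.42 (SE 0.078, edgeR adjusted p = 7.48e-04), and ATP5IF1, an inhibitor of the ATP synthase, had -0.42 (SE 0.09, edgeR adjusted p = 0.0032). NDUFS4 of complex I, with an interval of 122700 bp, was the member called higher (0.20 (SE 0.038, edgeR adjusted p = 8.83e-04)). The mitochondrial ribosomal protein gene MRPL41 had -0.36 (SE 0.066, edgeR adjusted p = 6.43e-04). Genes of the mTOR complexes, sestrins and TSC had 6 called higher and 1 lower of 27 (25.9%). MYC and G1 control genes had 6 higher and 1 lower of 32 (21.9%), with MYC itself not called (-0.02, edgeR adjusted p = 0.896). Cytosolic heat shock chaperones had 5 called lower and 1 higher of 39 (15.4%), and the proteasome 5 lower and 1 higher of 48 (12.5%). Intervals of small nucleolar and Cajal body RNAs had 16 called lower and 1 higher of 167, together 10.2% against 10.4% of all genes. Many of these intervals lie inside host genes already described. Without the block 0 members of the respiratory chain, mTOR, MYC, chaperone and proteasome lists and 1 small nucleolar or Cajal body interval were called. Without Degrader replicate 1 the counts higher and lower were 1 and 1 for the respiratory chain, 3 and 0 for mTOR, 1 and 0 for MYC, 0 and 1 for the chaperones, 1 and 1 for the proteasome and 0 and 5 for the small nucleolar intervals. Clone-named transcript intervals had 184 called lower and 105 higher of 4127, which together is 7.0%, below the 10.4% of all genes. Zinc finger genes of chromosome 19 had 4 called higher and 1 lower of 252 (1.98%).

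Some of the 53 genes called with and without the replicate block belong to none of the families above, and those named here were chosen after their values were seen. DCXR, an enzyme of xylulose metabolism whose interval overlaps others on both strands, had 40.1 and 37.1 CPM in DMSO, 43.1 and 37.3 CPM under GDC0068 and 28.6 and 27.0 CPM under Degrader, a difference of -0.53 (SE 0.063, edgeR adjusted p = 2.87e-06). PPARGC1B, a coactivator of mitochondrial genes, had 78.4 and 73.6 CPM in DMSO, 65.7 and 59.5 CPM under GDC0068 and 47.1 and 44.9 CPM under Degrader, a difference of -0.44 (SE 0.048, edgeR adjusted p = 7.21e-07). P2RY2, a nucleotide receptor (-0.45 (SE 0.074, edgeR adjusted p = 2.20e-04)), and the ligand gene WNT7B (-0.34 (SE 0.046, edgeR adjusted p = 2.42e-05)) were lower as well. GRB7, an adaptor of receptor tyrosine kinases, had 38.6 and 39.6 CPM in DMSO, 46.1 and 48.4 CPM under GDC0068 and 63.8 and 58.2 CPM under Degrader, a difference of 0.37 (SE 0.054, edgeR adjusted p = 6.11e-05). TP53INP1 (0.35 (SE 0.046, edgeR adjusted p = 1.10e-05)), a stress-induced autophagy protein gene, and CREBRF (0.38 (SE 0.051, edgeR adjusted p = 2.33e-05)), a regulator of the CREB3 factors, were higher under Degrader. In each of these 7 genes both libraries of one drug lay above both of the other, which their selection on these same libraries largely sets.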
